A study of Sus scrofa with 90 samples.

Results

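The comparison set muscle lesions collected 2 d after an injection of propylene glycol against muscle of the same pigs that had not been injected. Its members were the 20 muscle samples labelled as 2 d lesions or as controls, of 48 in all, and they came from 10 pigs that each gave 1 sample of both kinds. The 2 samples of a pig were paired by the letter in their labels. The tissue was the Longissimus dorsi, the long muscle of the back, and each piglet (Sus scrofa) received propylene glycol there at 4 sites and at different times. The sites were assigned at random, and lesions of 6 h (10 samples), 2 d (10 samples), 7 d (9 samples) and 21 d (9 samples) were collected beside 1 site left without injection (10 samples). The controls were therefore not from untreated animals, since every pig carried injected sites elsewhere in the same muscle, and no site injected with another fluid or with a needle alone was analysed here. RNA was converted to radioactively labelled cDNA and hybridised to nylon cDNA arrays, and each sample is counted here as 1 array.

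Propylene glycol is a solvent in which injected drugs are dissolved, and its injection into muscle can kill fibres at the site. Damaged muscle is first entered by neutrophils, then by macrophages that clear the debris, while satellite cells, the stem cells of muscle, divide and fuse into new fibres. New and spared fibres rebuild the sarcomere, the contractile unit made of myosin, actin, troponins and tropomyosins and anchored at the Z disc. Cytokine signalling and the laying down of new matrix accompany these steps.

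The table held 1908 features with a value in every column, and these were tested. Only 206 of them carried a gene symbol, for 121 genes, so 1702 features are known here by number alone. Values were log-transformed, and neither the labels nor the table state the base. A difference of 1 log unit is 2-fold in base 2 and 2.72-fold on the natural scale, and another base would give another fold. Over features, each of the 20 arrays had a correlation of r = 0.786 to 0.968 with the average of the remaining arrays, lowest in the 2 d lesion of pig D. Arrays hold no count of molecules, so their number limits the precision. In whole tissue, fewer cells of a type and less RNA per cell cannot be told apart.

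The measured markers were those of muscle fibres. Of 16 fibre markers 12 were measured, none passed the test, and their median difference between 2 d lesion and control was 0.06 log units. Nothing was measured from the marker lists of neutrophils, macrophages and monocytes, lymphocytes, fibroblasts, satellite cells, red blood cells or fat cells. Of the endothelial markers PECAM1 alone was measured, with a difference of -0.07. Of the list of complement and immune proteins B2M, the light chain of MHC class I, and CD74, the invariant chain of MHC class II, were measured, with differences of -0.17 and -0.06 and no call. The part of inflammatory cells in the results was not tested.

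The first question was which features differed between the 2 d lesion and the control of the same pig. Against control, 17 of 1908 features rose (0.891%) and none fell (0%) by limma with the pig as a block and a Benjamini-Hochberg adjusted p below 0.05. None of the 17 carried a gene symbol. Their differences ran from 0.30 to 1.05 log units with a median of 0.45, and 13 were higher in 10 of 10 pigs and 4 in 9 of 10. At an unadjusted p below 0.05 there were 266 features (13.9%), 162 higher and 104 lower. With all 5 groups in the same fit 10 features were called (0.524%), and 14 were called (0.734%) once the 6 h array of pig F was dropped from that fit. That array had r = 0.240 with the average of the others, and was not in the fit of the 20 samples.

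Feature 7571 had the smallest adjusted p. Its values ran from 0.54 to 1.33 with a median of 0.87 in 2 d lesions, and from -0.19 to 0.43 with a median of -0.08 in controls. Every lesion lay above every control, and the mean was 0.96 ± 0.25 in 2 d lesions and -0.01 ± 0.18 in controls (SD, n = 10 each). The difference was 0.97 log units (SE 0.0713, limma adjusted p = 1.25e-06), higher in 10 of 10 pigs.

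Feature 4828 had the narrowest spread among the 8 features with the largest rises. It ran from 0.43 to 0.73 with a median of 0.58 in 2 d lesions, and from -0.30 to 0.03 with a median of -0.24 in controls. The groups did not overlap, and the difference was 0.77 (SE 0.0617, limma adjusted p = 1.95e-06). Its neighbour on the feature list, 4827, was also called, at 1.65 ± 0.19 in 2 d lesions and 1.16 ± 0.33 in controls (SD, n = 10 each). For 4827 the groups overlapped, and the difference of 0.49 (SE 0.105, limma adjusted p = 0.0369) was positive in 9 of 10 pigs.

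The largest difference belonged to feature 7150. It ran from 0.30 to 1.26 with a median of 1.04 in 2 d lesions, and from -0.48 to 0.16 with a median of -0.04 in controls. The groups did not overlap, although 2 of the lesions lay well below the other 8. The difference was 1.05 (SE 0.127, limma adjusted p = 0.000285), higher in 10 of 10 pigs.

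Features 4617 and 5089 completed the 5 whose groups did not overlap with the lesion higher (0.262% of features), and no feature had groups apart with the lesion lower (0%). Feature 4617 ran from 0.30 to 1.07 with a median of 0.56 in 2 d lesions, and from -0.31 to 0.12 with a median of -0.07 in controls, a difference of 0.64 (SE 0.0790). Feature 5089 ran from -0.05 to 1.09 with a median of 0.65 in 2 d lesions, and from -0.41 to -0.06 with a median of -0.08 in controls, a difference of 0.65 (SE 0.0961). Its lowest lesion lay just above its highest control, and its lesions spread more widely than its controls, with SDs of 0.38 and 0.12. Adjusted p-values by limma were 0.000285 for 4617 and 0.00224 for 5089.

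Features 6695 and 7088 overlapped between groups but were higher in the lesion of every pig. Feature 6695 ran from 0.17 to 1.11 with a median of 0.81 in 2 d lesions, and from -0.45 to 0.48 with a median of -0.09 in controls (difference 0.76, SE 0.135, limma adjusted p = 0.00935). Feature 7088 ran from 0.92 to 1.68 with a median of 1.35 in 2 d lesions, and from 0.56 to 1.16 with a median of 0.79 in controls (difference 0.50, SE 0.0853, limma adjusted p = 0.00671).

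**Figure D1:**
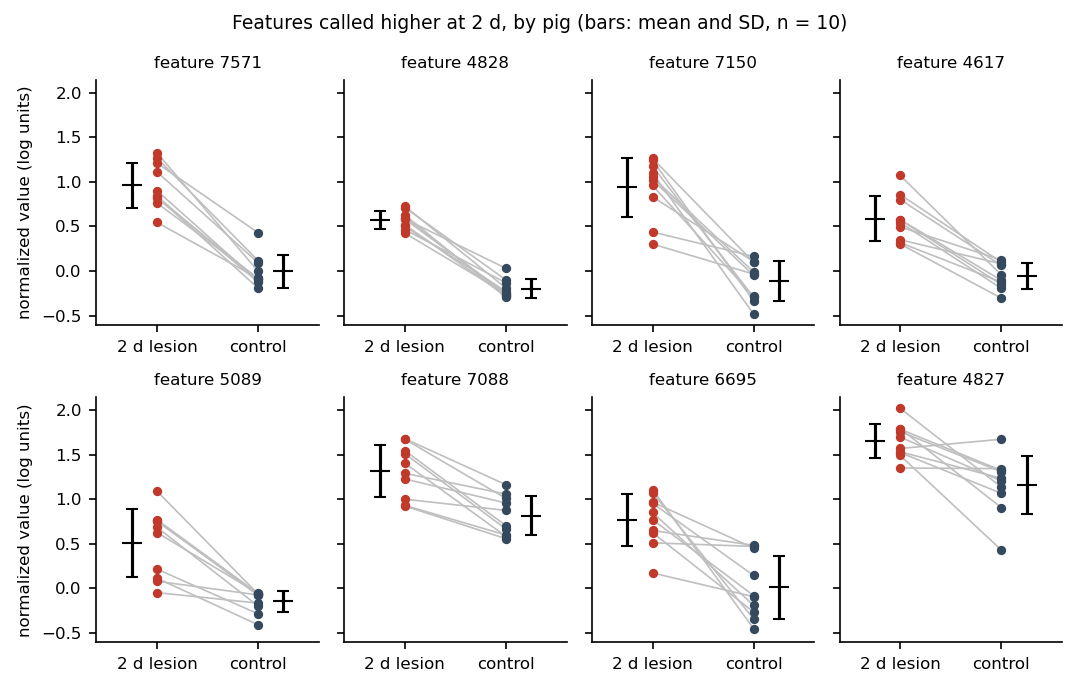
Normalized values in log units of the 8 called features with the largest rises, for 10 pigs, with the 2 d lesion left and the control right in each panel. Points are samples, lines join the samples of a pig, and bars give the mean and SD; in features 7571, 4828, 7150, 4617 and 5089 every lesion lies above every control.

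The other 9 called features had smaller differences and are named here after their values were seen. Features 7202, 7583 and 7402 had means of 0.42, -0.02 and 0.20 in 2 d lesions, against -0.03, -0.43 and -0.15 in controls. Features 5745, 4858, 6445, 5145, 6652 and 5552 were among the 477 features with the highest signal, a property of the spot that does not rank transcripts. Feature 4858 was at 2.91 ± 0.19 in 2 d lesions and 2.51 ± 0.30 in controls, and 6652 had the smallest difference of all 17, with 1.45 ± 0.17 in 2 d lesions and 1.15 ± 0.12 in controls (SD, n = 10 each). The differences of the 9 lay between 0.30 and 0.45, with limma adjusted p-values from 0.00347 (5745) to 0.0421 (5552). Ranked by mean level over the 48 arrays, 8 of the 17 called features were in that set and 3 lay below the median (4828, 7583 and 7402).

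Within single pigs the called features moved together. In every pig 16 or 17 of the 17 were higher in the lesion, and their median difference ran from 0.27 in pig F to 0.66 in pig G. The direction is fixed by the choice of called features, so these counts are a description. The SD of the lesion minus control differences over all features ran from 0.183 in pig J to 0.513 in pig D.

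The spread of values within an array differed between the groups, which bears on each difference above. The SD of the deposited values was 0.805 ± 0.0985 in 2 d lesions and 0.976 ± 0.237 in controls (SD over arrays, n = 10 each). It was lower in the lesion in 8 of 10 pigs, with a mean difference of -0.171 and p = 0.0371 in an exact two-sided sign-flip permutation test. Pigs C and L went the other way, with SDs of 0.706 and 0.718 in their 2 d lesions, against 0.528 and 0.594 in their controls. Leaving out any 1 of the other 8 pigs put this p between 0.0508 and 0.0742. With the array SD as a term in the limma model 7 features were called, all among the 17: 7571, 4828, 7150, 4617, 6695, 5745 and 5145.

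Quantile normalization gives every array the same spread. On median-centred values, which keep the arrays' own spread, the 477 features with the highest signal had a median difference of -0.38, against -0.05 after quantile normalization. On those values 205 features were called, 66 higher and 139 lower. Of the 17 features 9 were called on both scalings: 7571, 4828, 7150, 4617, 5089, 6695, 7202, 7583 and 7402. Features 7088, 4827 and 6445 were positive but not called on median-centred values, with differences of 0.31, 0.20 and 0.02. Features 5745, 4858, 5145, 6652 and 5552 had median-centred differences from -0.067 to -0.0034, so their direction depended on the scaling.

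**Figure D2:**
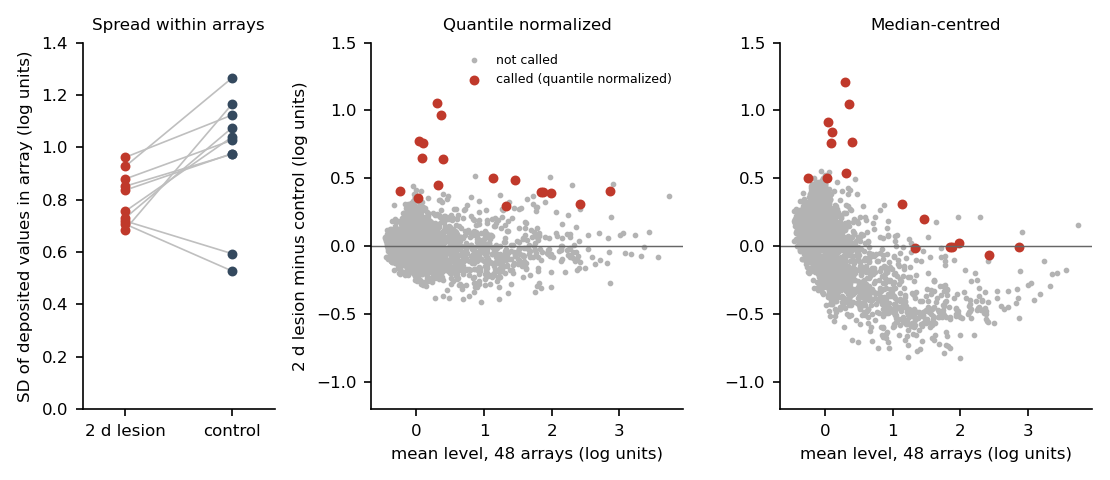
Left, SD of the deposited values in each array in log units, 2 d lesion left and control right, with lines joining the samples of a pig. Middle and right, 2 d lesion minus control in log units against mean level for 1908 features, after quantile normalization and after median-centring; the 17 called features are red, and features of high signal shift below 0 in the right panel, where 5 called features are not positive.

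The numbers in the sample titles fell into runs, and in 4 pigs (C, D, I and J) both samples lay in the same run. What the runs stand for is not stated. Within those 4 pigs all 17 called features were positive, with differences from 0.30 to 0.87. The 4 are among the 10 pigs on which the 17 were chosen, so this direction was largely fixed beforehand and is a description. No feature was called by limma in these 4 pigs, where 232 features had an unadjusted p below 0.05. With the run as a term for all 10 pigs, 15 of the 17 stayed called, with differences of the 17 from 0.30 to 1.15.

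The second question was where the 2 d lesion differed from lesions of other ages. These contrasts were taken from a fit of all 5 groups in which the poorly correlated 6 h array was left out, leaving 9 lesions of 6 h. Higher at 2 d were 29 features than at 6 h (1.52%), 134 than at 7 d (7.02%) and 43 than at 21 d (2.25%). Features lower at 2 d in a single contrast are not counted here. In all 3 contrasts at once 20 of 1908 features were higher at 2 d (1.05%) and 46 of 1908 were lower. Their median differences from control were 0.11 for the higher and 0.02 for the lower. Of the 20, 15 were not called against control. All 3 contrasts use the same 2 d arrays, and the features called against control were chosen on those arrays too.

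Features 7571, 4828, 7150, 5089 and 6695 were higher at 2 d than at every other age. For 7571 the difference from control was 0.37 for the 6 h lesion, 0.97 for the 2 d lesion, 0.35 after 7 d and 0.11 after 21 d, and the 2 d lesion exceeded the others by 0.60, 0.62 and 0.85 log units (limma adjusted p = 1.67e-05, 3.19e-06 and 4.09e-09). For 7150 the differences from control, in order of age, were 0.52, 1.05, 0.32 and 0.22. Both peaked at 2 d and were lowest at 21 d. Feature 4828 stood 0.29 above control at 6 h and 0.77 at 2 d, then 0.10 at 7 d and 0.04 at 21 d. Feature 6695 was above control at 2 d alone, by 0.76, with -0.11 at 6 h, -0.15 at 7 d and -0.04 at 21 d, and none of those 3 passed the test. Feature 5089 was likewise called at 2 d alone, with 0.16, 0.65, 0.15 and 0.13 in order of age.

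The other 12 called features were not higher at 2 d than at each other age. Feature 4617 stood 0.36, 0.64, 0.69 and 0.68 above control in order of age. The 2 d lesion was lower than the 7 d lesion in 4858 by a contrast of -0.31 (limma adjusted p = 0.0267) and in 6445 by a contrast of -0.27 (limma adjusted p = 0.0389). Feature 7583 was higher at 2 d than at 7 d by 0.30 and than at 21 d by 0.34, with no call against 6 h. Set against control, the 6 h lesion had 132 features higher (6.92%), the 7 d lesion 204 (10.7%) and the 21 d lesion 124 (6.5%), and all ages share the same control arrays. These counts are of rises alone. Falls were called at those ages too, among them TPM2 at 6 h and POMGNT1 at 7 d and 21 d, and are not counted here.

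**Figure D3:**
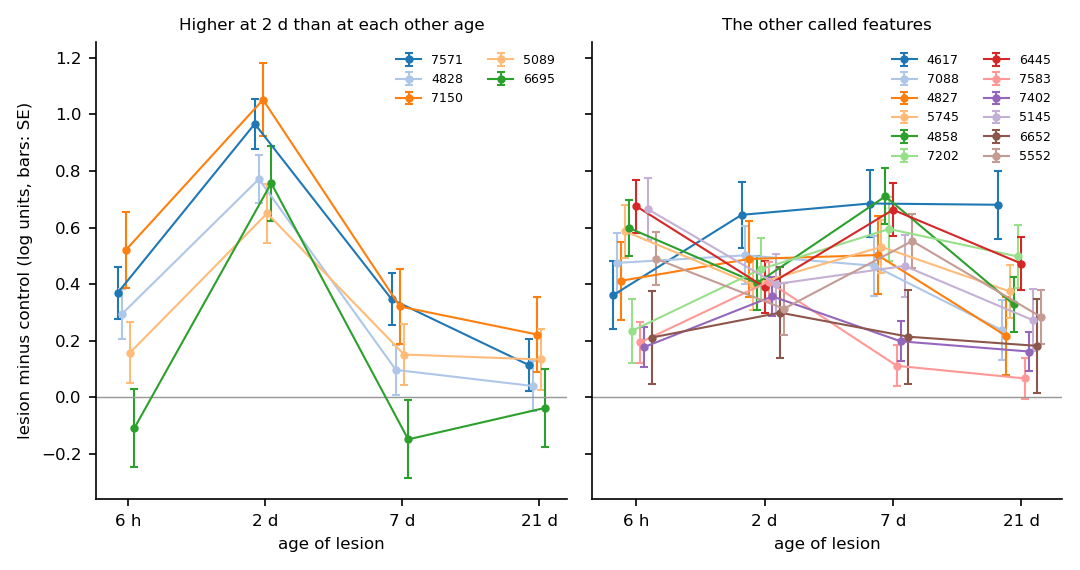
Lesion minus control in log units by lesion age for the 17 called features, from the fit of all groups with the poorly correlated 6 h array left out, with bars for the SE. Left, the 5 features higher at 2 d than at each other age, which stand at 0.65 to 1.05 at 2 d; right, the other 12.

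The third question was which named genes differed. Each gene is described by 1 feature, the one with the highest mean over all samples, unless a feature number is given. None of the 121 genes was called, nor any of the 206 features with a symbol. Of the 121 genes, 16 had an unadjusted p below 0.05, 10 higher and 6 lower, beside 266 of all 1908 features (13.9%). The smallest adjusted p of a gene was 0.108 by limma, and over all features with a symbol it was 0.0879, for a second feature of ENO3. Differences ran from -0.34 (MYOZ1) to 0.36 (BTG2), and the unadjusted 95% interval lay within ±0.5 log units for 112 genes and within ±1 for all 121. Over all features 44.2% of differences were positive, 96.3% lay within ±0.3 and the median was -0.02.

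Among chaperones, HSPE1, the mitochondrial co-chaperonin, came nearest to the threshold. It ran from 2.10 to 2.68 with a median of 2.33 in 2 d lesions, and from 1.94 to 2.51 with a median of 2.06 in controls. The groups overlapped, and the difference was 0.28 (SE 0.0738, limma adjusted p = 0.108), positive in 9 of 10 pigs. Against the other ages HSPE1 was lower in the 2 d lesion than in the 6 h lesion by a contrast of -0.38 and than in the 7 d lesion by a contrast of -0.30, with limma adjusted p-values of 0.00421 and 0.0136. The direction against control depended on the scaling, since the HSPE1 difference was -0.11 on median-centred values and -0.12 on table values.

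Slow and cardiac-type fibre genes had 7 measured members, 4 positive and 3 negative, with a median of 0.08 and none called. MYH7, the slow myosin heavy chain, ran from 0.68 to 1.19 with a median of 0.84 in 2 d lesions, and from 0.33 to 0.85 with a median of 0.62 in controls. Its difference of 0.25 (SE 0.0801, limma adjusted p = 0.198) was positive in 10 of 10 pigs. A second feature of the same symbol, 4799, had the opposite sign with -0.27 (limma adjusted p = 0.348). NPPA, atrial natriuretic peptide, was at 0.01 ± 0.22 in 2 d lesions and -0.16 ± 0.11 in controls (SD, n = 10 each).

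Fast fibre genes had 9 measured members with a median of -0.02, 4 positive and 5 negative, none called. CKM, the muscle creatine kinase that buffers ATP, was at 2.44 ± 0.12 in 2 d lesions and 2.55 ± 0.15 in controls (SD, n = 10 each). The CKM difference was -0.11 (SE 0.0738), and -0.06 without pig L. MYH1, a fast myosin heavy chain, had a difference of 0.11 (SE 0.0785), and 0.07 without pig C. Of 10 CKM features 8 were negative and 2 positive, among them -0.22 for feature 6528 and 0.16 for feature 6100. Of 18 features of MYLPF, the fast regulatory myosin light chain, 8 were positive and 10 negative, with -0.23 for feature 6113 and 0.28 for features 7952 and 8389. Without pig F the last 2 were 0.18 and 0.15.

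Shared sarcomere and Z disc genes had 5 measured members, 2 positive and 3 negative, with a median of -0.03 and none called. TPM2, beta-tropomyosin of the thin filament, ran from 0.22 to 0.95 with a median of 0.74 in 2 d lesions, and from 0.77 to 1.10 with a median of 0.92 in controls (difference -0.21, limma adjusted p = 0.214). It was lower in 9 of 10 pigs, and its feature 7105 had the opposite sign at 0.17. MYOZ1, a Z disc protein that binds calcineurin, was at 0.82 ± 0.47 in 2 d lesions and 1.16 ± 0.43 in controls (SD, n = 10 each), lower in 7 of 10 pigs. XIRP2, an actin-binding repeat protein of muscle, ran from -0.11 to 0.64 with a median of 0.00 in 2 d lesions, and from -0.13 to 0.36 with a median of -0.03 in controls. Its 2 d difference was 0.08 (95% interval -0.10 to 0.26, limma adjusted p = 0.652), and the 2 d lesion was lower than the lesions of 6 h, 7 d and 21 d by contrasts of -1.12, -1.99 and -2.13, with limma adjusted p-values of 4.16e-09, 9.40e-17 and 6.10e-18.

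Glycolysis and glycogen genes had 9 measured members, 5 positive and 4 negative, with a median of 0.06 and none called. These counts take 1 feature a gene. Feature 5922 of ENO3, a muscle enolase, which is outside the rule for naming and was picked after its values were seen, was at 0.16 ± 0.18 in 2 d lesions and 0.45 ± 0.21 in controls (SD, n = 10 each), a difference of -0.29 (limma adjusted p = 0.0879). Features of GAPDH, a glycolytic dehydrogenase, ran from -0.20 to 0.33. UGP2, which makes the UDP-glucose used for glycogen, was at 0.52 ± 0.27 in 2 d lesions and 0.25 ± 0.24 in controls (SD, n = 10 each), a difference of 0.27 (95% interval 0.06 to 0.49, limma adjusted p = 0.263), and 0.18 without pig L. The glycolytic enzymes TPI1 and PGK1 had differences of -0.18 and -0.28, each negative in 7 of 10 pigs. On median-centred values both were called, at -0.63 and -0.57 (limma adjusted p = 0.0352 for each). Both lay among the 477 features with the highest signal, of which 108 were called lower on those values, with a median difference of -0.38. In the mitochondrion, ATP5G1, a subunit of ATP synthase, had a difference of -0.19 (limma adjusted p = 0.289). COX7A1, which belongs to cytochrome c oxidase, had one of -0.04.

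Inflammatory signalling genes had 4 measured members, 1 positive and 3 negative, with a median of -0.03 and none called. JAK1, a kinase that carries cytokine receptor signals, ran from -0.14 to 0.17 with a median of -0.01 in 2 d lesions, and from -0.38 to 0.12 with a median of -0.21 in controls. The difference of 0.18 (limma adjusted p = 0.289) was positive in 9 of 10 pigs, and the 2 d lesion was below the lesions of 6 h, 7 d and 21 d by contrasts of -0.50, -0.55 and -0.36. MIF, macrophage migration inhibitory factor, was at 0.07 ± 0.26 in 2 d lesions and 0.35 ± 0.32 in controls (SD, n = 10 each), lower in 8 of 10 pigs. The other members, the NF-kappa-B inhibitor NFKBIA and the inducible cyclooxygenase PTGS2, had differences of -0.01 and -0.04.

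PTGS1 and BTG2 are not members of that list. PTGS1, cyclooxygenase 1 of prostaglandin synthesis, ran from -0.26 to 0.90 with a median of -0.05 in 2 d lesions, and from -0.29 to -0.03 with a median of -0.23 in controls, and its highest lesion lay far above every control (difference 0.33, limma adjusted p = 0.183). BTG2, an early response gene that restrains cell division, had a difference of 0.36 and was positive in 6 of 10 pigs.

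Genes of translation had 13 measured members, 5 positive and 8 negative, with a median of -0.03 and none called. EEF1A1, the elongation factor that brings transfer RNA to the ribosome, had a difference of 0.21 (0.14 without pig D), the ribosomal protein RPS16 one of 0.19 (0.12 without pig D), and RACK1, a scaffold on the ribosome, one of -0.15. RACK1 was lower at 2 d than at 7 d and 21 d by contrasts of -0.38 and -0.35 (limma adjusted p = 0.00754 and 0.0263). Cell surface genes had 3 measured members with a median of 0.04, and the non-muscle cytoskeleton 4 with a median of -0.06. ANPEP, the membrane peptidase aminopeptidase N, was at 0.32 ± 0.25 in 2 d lesions and 0.13 ± 0.15 in controls (SD, n = 10 each). Its difference of 0.19 was 0.09 without pig D, and it was lower at 2 d than at 7 d and 21 d by contrasts of -0.45 and -0.92. POMGNT1, which helps to glycosylate dystroglycan, had a difference of -0.13. ACTB, non-muscle actin, had one of -0.14 (-0.09 without pig F), with -0.27 in its feature 5513 and 0.22 in its feature 5363.

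Of the remaining named genes, HTT, huntingtin, had a difference of -0.20, and AWN, a spermadhesin known from boar seminal plasma, one of 0.36 (0.24 without pig F). MAPK12, a p38 kinase of muscle, had -0.08, TPT1, a growth-related protein, -0.07, CAPNS1, the small calpain subunit, -0.09, TUBA1B, an alpha-tubulin, -0.08, and QDPR, which regenerates tetrahydrobiopterin, -0.07. None of them passed the test, and the sign of CAPNS1 turned without pig F (0.02). QDPR was among the 20 features higher at 2 d than at each other age, by 0.27, 0.30 and 0.26, and its 2 d level of 1.16 ± 0.15 lay within the spread of the controls at 1.23 ± 0.19 (SD, n = 10 each).

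**Figure D4:**
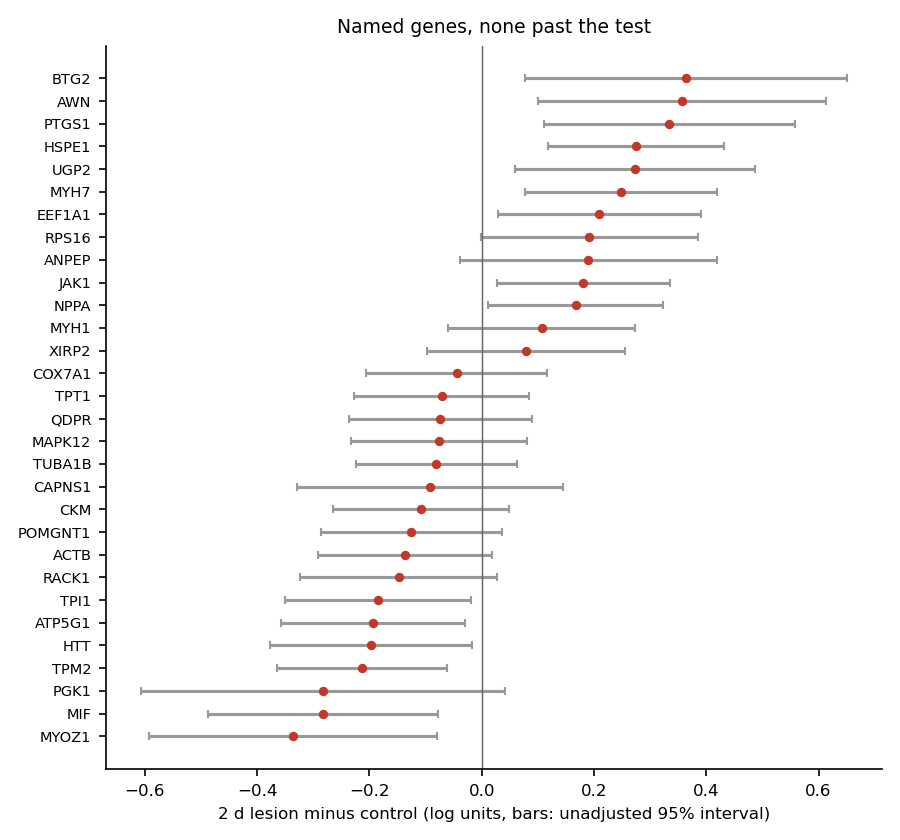
Difference of 2 d lesion minus control in log units for the 30 named genes, with bars for the unadjusted 95% interval. The points run from -0.34 (MYOZ1) to 0.36 (BTG2), and none passed the test after adjustment.

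Scaling bore on the named genes as well. On median-centred values 15 of 121 genes were called by limma, beside 205 of all 1908 features (66 higher, 139 lower). Of the genes, AWN, BTG2, PRKAG1 and PTGS1 were higher at 2 d. GAPDH, HTT, MIF, MYOZ1, PGK1, POMGNT1, RACK1, SLC35A4, TPI1, TPM2 and TPT1 were lower. The differences there were 0.46 for AWN, 0.49 for BTG2 and 0.45 for PTGS1, and they were -0.66 for MYOZ1, -0.56 for RACK1, -0.51 for TPT1, -0.49 for TPM2 and -0.43 for MIF. Of the 477 features with the highest signal, 108 were called lower on median-centred values and 0 higher.

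Features listed under the same symbol differed from each other. Of 31 genes with several features, 12 had all of them on 1 side of 0. The median correlation over the 20 arrays between features of the same symbol was 0.0182 (347 pairs), against -0.0076 between features in general. These correlations share arrays and depth of signal and are a description, and they limit how far a value can be read as that of the gene listed.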

How the data were processed

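The deposited series table gives log-scale values of unstated base, a unit other than counts or intensities. Per the labels, spots of fixed diameter were quantified from phosphor images at 25 micrometre resolution; neither labels nor table say how the authors centred or filtered them. The 20 samples had 37 columns, duplicates of an array with identical values, which were averaged; 3 samples had 1 column. In the 6 h lesion of pig J 1 column copied a control of another pig and was left out.

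Values were quantile normalized over 48 samples and fitted with limma 3.58.1 in R 4.3.3 (lmFit, eBayes), with the pig as a fixed block because lesion and control came from the same animal. The median correlation of deviations was 0.130 within pigs and -0.0445 between pigs. P-values were two-sided and adjusted over 1908 features by Benjamini-Hochberg. The fit was tested on simulated data. Symbols came from the platform annotation, updated through RefSeq (204 of 206 features matched).

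The features named were the 8 called with the largest rises in at least 8 pigs, the 8 highest and 8 lowest genes by moderated t, genes earlier work had called at other ages, 2 members of each list with 3 or more measured genes, and disagreeing features of a gene. Members and lists were chosen with earlier results of these data known. No feature sequences or genome build were used here.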

Additional observations from a re-analysis of the deposited data

Results flagged for a closer look

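Single samples stood far from the rest of their group in 11 of 114 groups of 10 examined. The cut-off was one that about 1 in 20 independent groups would pass by chance. The groups shared the same arrays and mostly belonged to chosen features, so the 11 cannot be set against that rate. The rate over all features was not counted. In 2 d lesions the samples that stood apart were MYH7 (1.19), ANPEP (0.92) and QDPR (0.81) in pig D, XIRP2 in pig E (0.64) and feature 6652 in pig F (1.04). In controls they were feature 7571 in pig C (0.43), HSPE1 (2.51), QDPR (0.74) and feature 4858 (3.26) in pig E, MYOZ1 in pig I (2.27) and XIRP2 in pig D (0.36). The 2 d array of pig D also had the lowest correlation with the other arrays, r = 0.786.

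The 2 d lesion differed from a lesion of another age in 43 of 168 contrasts examined by limma (adjusted over all features). The items examined included genes that earlier work had called at other ages and features called on the same 2 d arrays. The count is therefore a description of chosen items. Over all 1908 features, 1.52% were higher at 2 d than at 6 h, 7.02% than at 7 d and 2.25% than at 21 d. Those shares are of rises alone, while the 43 contrasts include rises and falls, so they cannot be set against each other. Shares of features lower at 2 d in a single contrast were not counted. Contrasts of 2 d minus 6 h, 7 d and 21 d were 0.60, 0.62 and 0.85 for feature 7571, 0.48, 0.67 and 0.73 for 4828, 0.53, 0.73 and 0.83 for 7150, 0.49, 0.50 and 0.52 for 5089, and 0.87, 0.90 and 0.79 for 6695. The same contrasts were -0.50, -0.55 and -0.36 for JAK1, 0.27, 0.30 and 0.26 for QDPR, and -1.12, -1.99 and -2.13 for XIRP2. Against 6 h, HSPE1 differed by -0.38 and TPM2 by 0.34.

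Against 7 d the contrasts were -0.30 for HSPE1, -0.40 for UGP2, -0.38 for RACK1, -0.45 for ANPEP, 0.41 for POMGNT1, 0.26 for CKM, 0.36 for TPT1, 0.65 for CAPNS1 and 0.31 for COX7A1, and for features 4858, 6445 and 7583 they were -0.31, -0.27 and 0.30. Against 21 d they were -0.48 for ACTB, -0.35 for RACK1, -0.92 for ANPEP, 0.43 for POMGNT1 and 0.34 for feature 7583.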

How the results depend on the processing

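The count of 17 called features moved with the processing. It was 10 with all 5 groups in the fit, 205 after median-centring (66 higher, 139 lower) and 77 on the table values as deposited (22 higher, 55 lower). It was 7 with the array SD in the model and 40 with array weights (38 higher, 2 lower). With fewer pigs it was 9 in the 7 pigs with 2 columns in both samples and 0 in the 4 pigs of 1 run of title numbers. In those 4 pigs limma gave 232 features at an unadjusted p below 0.05. In the main fit the count at adjusted p below 0.01 was 10 and below 0.10 it was 30 (28 higher, 2 lower). Leaving out 1 pig gave 11 to 20, with 11 without pig H, J or K. Without the replicate block it was 21, with 16 of the 17 among them, and 21 with the pig as a random block. Of the 17 features 10 were called whichever pig was left out. The others were called in 8 of 10 such runs (6445), 5 (7583), 4 (7402), 3 (each of 5145, 6652 and 4827) and 1 (5552). Features 5145, 6652, 4827 and 5552 were also not called with all 5 groups in the fit and the 6 h array of pig F dropped.

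Of the genes with a symbol, 0 were called by limma, against 15 after median-centring (4 higher, 11 lower), 7 on table values, 2 with array weights (HSPE1 and MYH7) and 1 with the local trend along the list subtracted (GAPDH). On median-centred and table values 5 called features turned to -0.0034 and -0.019 (5745), -0.0069 and -0.022 (4858), -0.0061 and -0.022 (5145), -0.017 and -0.033 (6652) and -0.067 and -0.083 (5552); those settings keep the arrays' own spread. The array SD difference of -0.171 had p = 0.05003 in an exact permutation test without the replicate block, and the interquartile range differed by -0.256 (exact p = 0.0820). Leaving out 1 pig moved the SD difference between -0.210 and -0.137. Over all settings, the called features kept direction and call in 308 of 424 values, lost the call in 106 and turned in 10. The cause of these changes was not tested.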
